A study of Bos taurus with 14 samples.

Results

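Embryonic genome activation (EGA) was followed in bovine embryos that spent it in the oviduct of lactating cows. The comparison covered 8 of the 14 RNA-seq libraries of the series: 3 libraries of Day-4 embryos from lactating cows (LACT) and 5 libraries of Day-2 embryos, taken from the columns whose labels carry those names. Every library was a pool of 5 embryos. Day-2 embryos were produced in vitro from abattoir oocytes and the sperm of 1 bull, and had 4 cells. LACT embryos were of the same in vitro origin: on Day 2, 50 of them were placed in the oviduct of a primiparous Holstein-Friesian cow that was milked after calving, and on Day 4 embryos with 16 cells were recovered by flushing. Per the study the embryos of a LACT pool came from the same cow, so a LACT library is described as 1 cow and a Day-2 library as a pool before transfer. The other Day-4 groups, used here only beside LACT, were embryos from cows dried off at calving (DRY, 3 libraries) and embryos kept in in vitro culture (IVC, 3 libraries). Day and environment changed together between Day-2 and LACT, so that the effect of time and that of the oviduct cannot be told apart in this comparison.

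Before EGA the embryo lives on mRNA and protein stored in the oocyte, and its own genes are nearly silent. In cattle its genome is switched on several cleavages after fertilisation, while the stored messages decay. Ribosome production, mitochondrial respiration and RNA processing are among the functions whose genes are typically switched on at this step.

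The deposited values were counts of reads per gene, and levels are given as CPM, the reads of a gene scaled to a common library total, after TMM scaling of the libraries. Total counts ranged from 27790816 to 30120040 in Day-2 and from 24334519 to 29953316 in LACT. The smallest signal taken as detected, 3 counts, was worth 0.0757 to 0.105 CPM in Day-2 and 0.114 to 0.153 CPM in LACT, and this limit covers counting error only. CPM are shares of a library, and no spiked-in RNA is described, so a rise means a larger share of the reads and not necessarily more molecules per embryo. In such pools fewer cells that carry a transcript and less of it per cell cannot be told apart either.

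The libraries of both groups were not spaced as separate samples usually are. LACT replicate 3 lay within 5% of the mean of LACT 1 and LACT 2 for 97.1% of the 8685 genes with a LACT mean of at least 5 CPM, against 7.83% for LACT 1 and 7.83% for LACT 2. In Day-2 the relation involved all 5 libraries: the mean of replicates 1 and 5 lay within 5% of the mean of replicates 2, 3 and 4 for 72.2% of 7998 genes, whereas each of the other 9 ways to set 2 Day-2 libraries against 3 gave 10.2% to 14.6%. These values show that the 8 libraries carry less independent information than their number, and p-values from all of them may be too small. Whether LACT 3 stands for a cow of its own cannot be told from them. Counts are therefore also given without LACT 3, and without LACT 3 and either Day-2 5 or Day-2 1. Between LACT 1 and LACT 2, 13.5% of 9181 genes differed by more than 4-fold, within the range of the 10 pairs of Day-2 libraries (10.7% to 20.1%).

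Of 11968 genes tested, 3207 were higher and 3111 lower in LACT than in Day-2 by the quasi-likelihood test of edgeR (adjusted p after Benjamini-Hochberg, here FDR, under 0.05), which is 26.8% and 26.0% of the genes tested. The rises were larger than the falls. The median log2 fold change was 4.43 among genes that rose and -2.64 among genes that fell, beside 0.14 over all genes tested. A log2 fold change of at least 5 was reached by 1371 of the genes that rose, and one of -5 or less by 394 of those that fell. All LACT libraries lay above all Day-2 libraries for 3135 of the genes that rose, and below them for 3002 of those that fell. Over all genes tested, 33.1% had every LACT library above and 28.2% every LACT library below Day-2. Without LACT 3 the counts were 2346 higher and 2690 lower (18.4% and 21.1% of 12754 genes), of which 2326 and 2585 were in the counts from all 8 libraries. Without LACT 3 and Day-2 5 they were 2394 and 2234, together 37.7% of the genes tested, and without LACT 3 and Day-2 1 they were 2199 and 2473 (17.5% and 19.7%, together 37.2%).

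**Figure D1:**
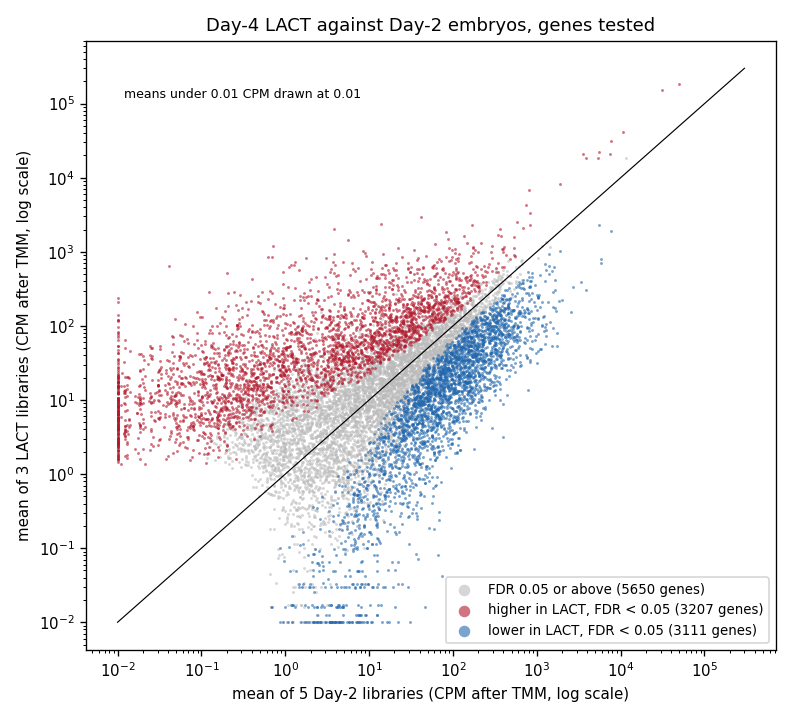
Mean level of each of the 11968 genes tested in the 5 Day-2 libraries (x) and the 3 LACT libraries (y), in CPM on log scales, with the diagonal marking equal levels. The 3207 genes that rose spread from the left edge, where Day-2 had almost no reads, whereas the 3111 genes that fell lie mostly among genes abundant on Day 2.

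The genes that fell were abundant before transfer. Their median level went from 76.9 CPM in Day-2 to 13.6 CPM in LACT, and 83.7% of them still had a LACT mean of at least 1 CPM. Genes that rose went from a median of 1.82 CPM to 42.2 CPM, and 55.6% of them had a Day-2 mean of at least 1 CPM. Of the 100 genes with the highest Day-2 mean, 83 fell and 12 rose. Of the 5968 genes below rank 6000 on Day 2, 2319 rose and 401 fell. Ranked in LACT, 86 of the 100 most abundant genes had risen and 5 had fallen. Summed over genes that rose, the share of a library's reads was 17.9% to 24.7% in Day-2 and 71.0% to 74.99% in LACT, and over genes that fell it was 55.8% to 60.3% and 8.73% to 11.03%. Genes were sorted here by the values that the test also used, so these shares describe the change and add no test to it.

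**Figure D2:**
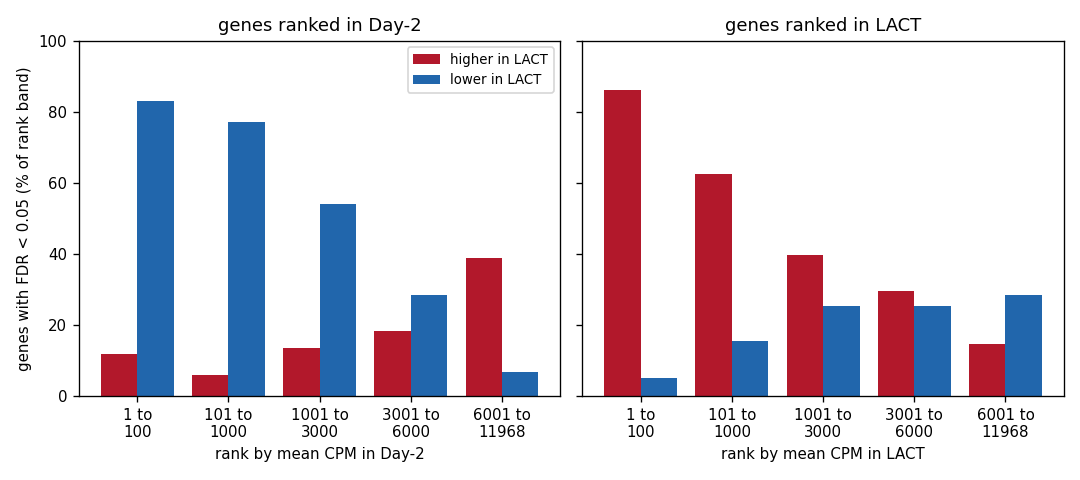
Share of genes with an FDR under 0.05 that were higher or lower in LACT, in 5 bands of rank by mean CPM, with ranks taken in Day-2 (left) or in LACT (right). Among the 100 genes ranked first in Day-2, 83.0% fell, and among the 100 ranked first in LACT, 86.0% had risen.

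Transcripts that appeared and transcripts that were lost were counted over the whole table. Of 11499 genes with at most 3 counts in every Day-2 library, 415 had at least 1 CPM in every LACT library, with a median of 8.10 CPM and a highest mean of 236 CPM. Among these, 217 also reached 1 CPM in every DRY library, 269 in every IVC library, and 181 in all libraries of both. Genes silent on Day 2 gave 0.902% to 1.16% of the counts of a LACT library. The bulk of the LACT reads thus came from genes with more than 3 counts in at least 1 Day-2 library. The 10 genes that led in LACT alone held 42.8% of its reads, against 14.9% in Day-2. LACT 1 and LACT 2 differed. Of 1360 genes silent on Day 2 with at least 1 CPM in any LACT library, 283 reached it in LACT 1 with at most 3 counts in LACT 2. The reverse held for 191. With 1 library per cow by the study's description, the cow, the pool and technical loss cannot be told apart. In the other direction, 7588 genes had at least 1 CPM in every Day-2 library, and 6503 of them (85.7%) kept that level in every LACT library. At most 3 counts in every LACT library were left for 93 of them, whose median Day-2 level was 5.87 CPM. Without LACT 3 the genes that appeared numbered 433 and those lost 191.

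The most abundant genes took a larger share of the reads in LACT, and 6 genes were among the leading 10 on both days. The 10 genes with the most reads over the 8 libraries held between 11.01% and 19.6% of all reads in Day-2 and between 40.6% and 45.1% in LACT. The single most abundant gene on both days, ENSBTAG00000043567, had 63998, 41673, 36666, 72458 and 30518 CPM in Day-2 replicates 1 to 5, and 194754, 174007 and 176649 CPM in LACT 1 to 3. All LACT libraries were above all Day-2 libraries, with a log2 fold change of 1.89 (SE 0.28, FDR 0.000692). No table used here pairs its identifier with a symbol. Of the 10 genes that led in LACT, 9 rose and none fell, and the remaining one did not pass. Among these 10, only COX3 and CYTB, both encoded by the mitochondrial genome, had a symbol here. ENSBTAG00000043563, ENSBTAG00000043571 and ENSBTAG00000043577 are listed under electron transport from NADH to ubiquinone, and ENSBTAG00000043584 under ATP synthesis. Which genome encodes the genes without a symbol was not determined. Of the 10 that led in Day-2, 5 rose and 4 fell. The highest of those that fell, ENSBTAG00000018263, had 8707, 7354, 7551, 8658 and 5779 CPM in Day-2 replicates 1 to 5 and 1819, 2050 and 1870 CPM in LACT 1 to 3, a log2 fold change of -1.99 (SE 0.17, FDR 3.03e-05).

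The 27 gene lists that follow were read from the study's list of terms for genes higher on Day 4, and the 21 after them from that for genes lower on Day 4. Only terms whose gene list is complete there were used, so the groups below cover a part of the study's terms. The study chose both on these libraries, so that their direction is not independent evidence. What is added here is the size of the change in LACT. In its comparison with Day 2 the study defined these genes as not differing between the Day-4 groups, so the changes below are not offered as particular to LACT. Its separate Day-4 comparison did name ND6, CYTB, COX3 and ATP8 as differing. In the Day-4 fit used here, 2 of 9 ATP synthesis genes were lower in LACT than in DRY, and none of them with 2 libraries per group. The median log2 fold change of the polysomal ribosome list was 5.08 in LACT, 5.09 in DRY and 5.39 in IVC. That of the cell cycle list was -2.35, -1.77 and -1.99. Members are known by Ensembl identifier only, except ND6, CYTB, COX3 and ATP8 in the respiration lists. These are described further below, and the limits given there for counts of mitochondrial genes hold for the respiration lists too.

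Genes for protein synthesis rose. Of 77 tested genes in 6 lists, 65 rose and none fell, with a median log2 fold change of 3.28 beside 0.14 for all genes tested. The list of polysomal ribosome genes, which encode proteins of translating ribosomes, went from a median of 10.7 CPM in Day-2 to 302 CPM in LACT, and 11 of 12 genes rose. Relative to each gene's Day-2 mean, the median of this list was 0.751 to 1.07 in the Day-2 libraries and 42.5, 27.2 and 33.1 in LACT 1, 2 and 3. The 11 genes of the small ribosomal subunit all rose (median log2 fold change 4.02, range 1.10 to 7.26). Translation initiation factors, which bring the ribosome to the mRNA, started from a higher Day-2 level (median 70.2 CPM) and had a lower median log2 fold change of 2.05, with 16 of 19 called. For the large subunit of the mitochondrial ribosome 13 of 20 passed, with a median of 3.47.

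Ribosome assembly and the machinery of RNA went the same way. In the 4 ribosome assembly lists, with genes for rRNA processing and snoRNA binding, 39 of 44 genes rose (median log2 fold change 2.73). RNA synthesis and processing had 75 of 78 genes higher, with a median of 3.34. The 8 genes for subunits of the DNA-directed RNA polymerases stood highest by median (5.86), from 0.723 CPM in Day-2 to 44.9 CPM in LACT, and all 8 rose. All 19 genes of the U2-type precatalytic spliceosome, which removes introns, rose as well (median 2.93, range 1.13 to 6.12), and so did the 18 genes for RNA degradation (median 2.42). Of 39 genes of the proteasome, heterochromatin and centromere lists, 34 rose (median 2.30).

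Respiration, the source of most ATP in the embryo, had the largest median of these groups. Of 57 genes in 6 lists, 47 rose and none fell (median log2 fold change 3.72, from 3.59 to 73.6 CPM). The genes of electron transport from NADH to ubiquinone had the lowest median of the 6 lists, 2.58, with 10 of 14 called, and complex III, which passes electrons to cytochrome c, the highest, 4.20, with 6 of 7 called. Assembly factors of complex IV were low in Day-2 (median 0.744 CPM) and 11 of 13 rose.

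Lists for the division machinery fell almost without exception. Of 76 genes in 6 lists of cell cycle, spindle, cleavage furrow, centriolar satellite and ciliary transition fibre genes, 75 fell and none rose (median log2 fold change -2.33, from 149 to 37.5 CPM). The 19 cell cycle genes all fell, and the median ratio to the Day-2 mean was 0.762 to 1.14 in Day-2 libraries and 0.249, 0.184 and 0.189 in LACT 1, 2 and 3. All 60 genes of the cell cortex and of cell junctions fell (median -2.61). The 10 myosin complex genes, which encode actin motors, all fell, with log2 fold changes from -5.35 to -2.20. Of 50 genes in the signalling lists 47 fell, among them all 19 listed under FoxO signalling (median -2.45). Of 77 genes for transcription factors and protein turnover 74 fell (median -2.60), and bromodomain genes, readers of acetylated histones, had the smallest median among these 21 lists (-1.81), with all 10 called.

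The counts were lower with fewer libraries. Without LACT 3, 51 protein synthesis, 27 ribosome assembly, 60 RNA and 40 respiration genes were called higher, against 65, 39, 75 and 47 with all libraries, and 25 of the proteasome and chromatin group. Without LACT 3 the genes called lower were 70 for division, 54 for cortex and junctions, 41 for signalling and 68 for transcription and turnover. With Day-2 1 left out as well they were 50, 22, 56, 36 and 23 for the groups that rose, in the order above, and 65, 51, 41 and 65 for those that fell. With Day-2 5 left out instead they were 55, 29, 63, 41 and 30, and 61, 49, 34 and 60. None of these fits called a gene of these groups in the opposite direction.

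**Figure D3:**
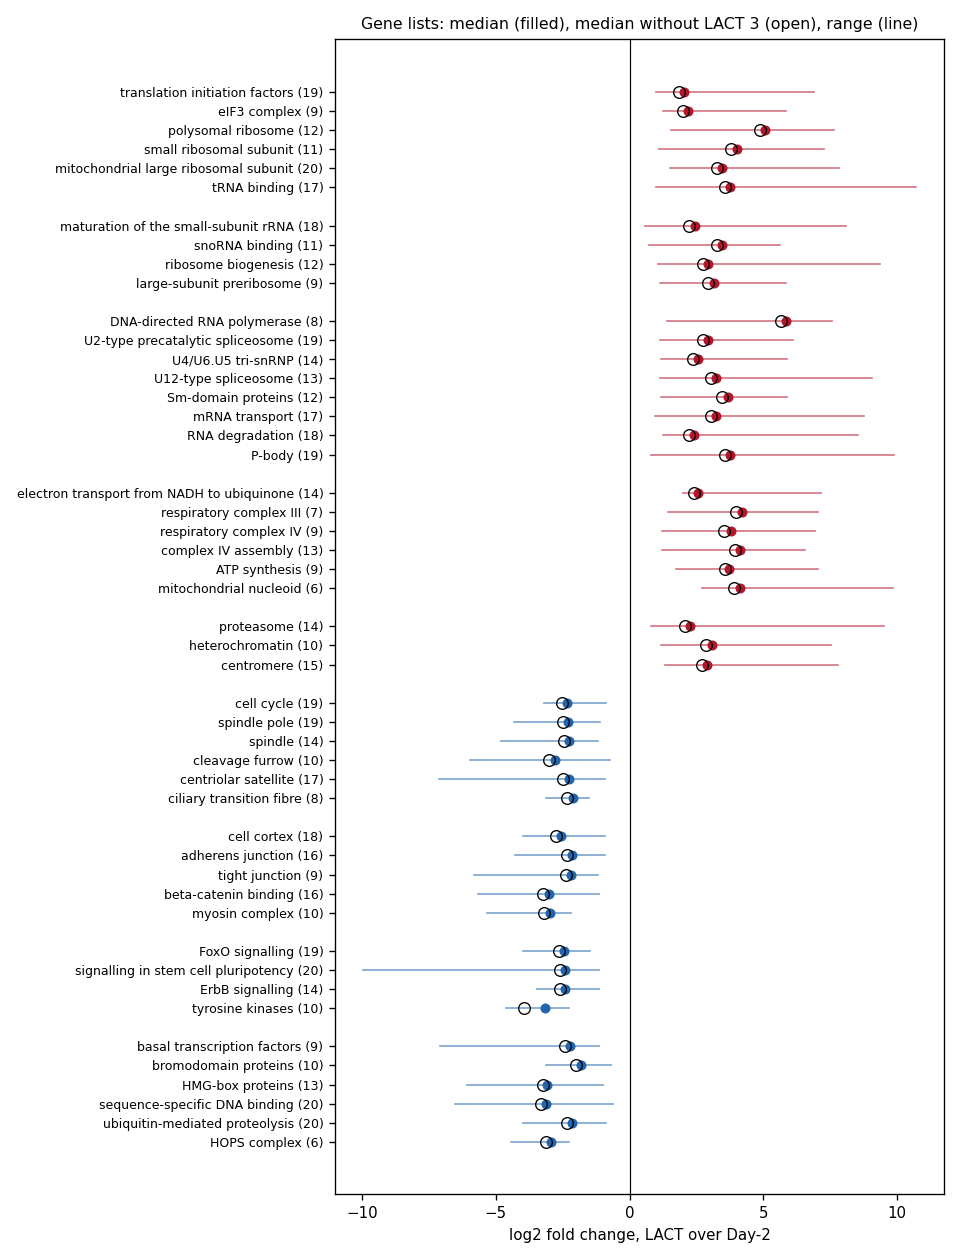
Log2 fold change of LACT over Day-2 for the 48 lists taken from genes the study called changed between Day 2 and Day 4, with the number of genes tested in brackets. Filled points are medians, open points medians without LACT 3 and lines the range over genes; no range crosses 0.

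Oxidative phosphorylation genes are the first of 3 sets for which identifiers and symbols are paired. The sets used here hold 25 genes, which the study selected for differences between Day-4 groups. ND6, CYTB, COX3 and ATP8 were also members of the respiration lists above, so their rise from Day 2 is not independent of the study's choice. Of the 25, 14 rose and 3 fell between Day-2 and LACT (9 and 3 without LACT 3).

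Of the 9 oxidative phosphorylation genes, 7 rose and none fell, with a median log2 fold change of 2.11. ATP5MF, a subunit of the membrane part of ATP synthase, had 2.11, 2.95, 1.66, 1.51 and 1.51 CPM in Day-2 replicates 1 to 5 and 46.3, 37.6 and 40.0 CPM in LACT 1 to 3. The groups were far apart, with a log2 fold change of 4.40 (SE 0.45, FDR 7.43e-05, and 0.00129 without LACT 3). SDHD, a membrane anchor of succinate dehydrogenase (complex II), had 4.81, 1.83, 5.57, 1.16 and 1.01 CPM in Day-2 and 51.3, 35.3 and 41.1 CPM in LACT, a log2 fold change of 3.89 (SE 0.68, FDR 0.00161). COX11, a copper chaperone needed to build complex IV, varied widely before transfer, from 0.372 to 7.44 CPM, and held 17.5, 18.7 and 17.5 CPM in LACT. All LACT libraries were above Day-2, but the log2 fold change of 2.20 did not pass (SE 0.92, FDR 0.0726). ATP6V0A2, a subunit of the proton pump that acidifies lysosomes, had 7.91 to 43.1 CPM in Day-2 and 11.5, 17.4 and 14.1 CPM in LACT, and the groups overlapped (log2 fold change -0.71, FDR 0.356).

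The other 5 genes of the set are encoded by the mitochondrial genome and were among the most abundant of all. COX3, a core subunit of complex IV, had 10370, 4650, 6519, 11848 and 4238 CPM in Day-2 replicates 1 to 5 and 24771, 17865 and 20258 CPM in LACT 1 to 3. CYTB, the mitochondrial subunit of complex III, had 8071, 2399, 5341, 8675 and 2611 CPM in Day-2 and 22046, 15819 and 17988 CPM in LACT. In both genes Day-2 replicates 2 and 5 were the lowest and LACT 1 the highest library. The same held for the complex I subunits ND6 and ND4L and the ATP synthase subunit ATP8, whose Day-2 means of 1898, 825 and 341 CPM became 8181, 3345 and 1705 CPM in LACT. The 5 genes had log2 fold changes from 1.48 (COX3, SE 0.35, FDR 0.00686) to 2.32 (ATP8, SE 0.42, FDR 0.00187), and their LACT libraries lay above all Day-2 libraries. Their summed share of the counts was 0.906% to 2.57% in Day-2 and 3.92% to 4.69% in LACT, beside 6.82% to 7.02% in DRY and 4.70% to 4.90% in IVC. Without LACT 1 the log2 fold changes were 1.68 for ND6, 1.39 for CYTB and 1.08 for COX3, and the FDR was 0.0812, 0.052 and 0.0539. Without LACT 3 the FDR of ND6 was 0.0509. Mitochondrial genes have copies in the nuclear genome, ND4L and ATP8 overlap neighbouring genes and ND6 lies on the other strand, so that these counts may hold reads of other genes, since the strand setting used in counting is not stated.

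The next set belongs to mTOR signalling, which couples growth to amino acid and energy supply. Of its 10 genes, 2 rose, 3 fell and 5 did not pass, shares near those of all genes tested (26.8% higher and 26.0% lower). Their median log2 fold change was -0.50, and 0.31 with the replicate number as a block. RRAGB and RRAGD encode Rag GTPases, which recruit mTORC1 to the lysosome as pairs, and these genes went in opposite directions. Other Rag GTPase genes were not examined here. RRAGB had 1 count in Day-2 replicate 3 and 0 in the other Day-2 libraries, and 14.9, 14.8 and 14.3 CPM in LACT 1 to 3. Set against 3 counts per library, it was at least 157-fold higher in LACT (FDR 0.000159). RRAGD had 52.8, 81.2, 36.5, 223 and 150 CPM in Day-2 and 3.78, 7.87 and 5.72 CPM in LACT. All LACT libraries were below all Day-2 libraries, with a log2 fold change of -4.23 (SE 0.72, FDR 0.00136).

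SESN2, a leucine sensor that restrains mTORC1, had 62.9, 43.1, 114, 117 and 99.6 CPM in Day-2 and 5.36, 14.5 and 9.88 CPM in LACT (log2 fold change -3.14, SE 0.50, FDR 0.000988). SLC38A9, the lysosomal arginine sensor, was steady in Day-2 (24.4 to 32.6 CPM) and had 8.33, 13.3 and 10.6 CPM in LACT, with a log2 fold change of -1.33 (SE 0.38, FDR 0.0165). The FDR of SLC38A9 was 0.043 without LACT 3, 0.123 without LACT 3 and Day-2 5, and 0.0901 without LACT 3 and Day-2 1.

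RICTOR, the defining subunit of mTORC2, had 53.2 to 109 CPM in Day-2 and 129, 163 and 142 CPM in LACT, a log2 fold change of 0.75 (SE 0.27, FDR 0.0411). Its call was lost when any LACT library was left out (FDR 0.188, 0.136 and 0.23 without LACT 1, 2 and 3) or Day-2 1, 4 or 5 (0.254, 0.0536 and 0.0558), and with scaling by library size alone (0.45). TTI1, a cochaperone for mTOR, had 35.1, 26.5 and 29.3 CPM in LACT 1 to 3 and 1.06 to 16.9 CPM in Day-2, and did not pass (FDR 0.115). MIOS, a subunit of the GATOR2 complex, had 61.9 to 81.2 CPM in Day-2 and 31.8, 64.3 and 47.4 CPM in LACT (FDR 0.122, and 0.0484 without LACT 2). LAMTOR4, part of the lysosomal Ragulator scaffold, differed between the LACT libraries, with 0.255, 12.7 and 5.87 CPM in LACT 1, 2 and 3, against 0 to 4.13 CPM in Day-2 (FDR 0.389). AKT1S1, an mTORC1 inhibitor, and TBC1D7, a subunit of the TSC complex, overlapped between the groups (FDR 0.686 and 0.282).

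Translation initiation was represented by 6 genes, of which 5 rose (median log2 fold change 1.07). Without LACT 3, 2 of the 6 were called higher, and without LACT 3 and Day-2 1 only EIF3J was. EIF3J, a loosely bound subunit of the eIF3 complex, had 27.4, 22.8, 28.2, 27.0 and 20.3 CPM in Day-2 and 165, 87.4 and 119 CPM in LACT, a log2 fold change of 2.30 (SE 0.27, FDR 0.000161). The call held without each library in turn. EIF2S1, the alpha subunit of eIF2, which carries the initiator tRNA, had 50.5 to 82.0 CPM in Day-2 and 193, 117 and 146 CPM in LACT (log2 fold change 1.13, SE 0.26, FDR 0.00578, and 0.0724 without LACT 1). The eIF3 subunit gene EIF3F had 3.57 to 42.2 CPM in Day-2 and 76.4, 95.1 and 83.2 CPM in LACT (log2 fold change 2.07, SE 0.70, FDR 0.034). For this gene leaving out 1 library gave an FDR of 0.112, 0.0836 and 0.118 without LACT 1, 2 and 3, and of 0.094 and 0.0681 without Day-2 1 and 2. EIF3B, a core subunit, had 45.4 to 75.04 CPM in Day-2 and 106, 101 and 99.8 CPM in LACT (log2 fold change 0.90, SE 0.23, FDR 0.00981). Its FDR was 0.0986 without LACT 1, 0.102 without LACT 3 and 0.0834 without Day-2 1.

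EIF3CL had 30.2 to 99.8 CPM in Day-2 and 155, 116 and 129 CPM in LACT (log2 fold change 1.01, SE 0.37, FDR 0.0462), and its reads may be shared with a near-identical EIF3C gene. Its call was lost without any 1 LACT library (FDR 0.302, 0.0741 and 0.197 without LACT 1, 2 and 3) and without Day-2 1, 2 or 5 (0.209, 0.0627 and 0.0569). EIF3E, also of eIF3, stayed at a like level, with 171 to 350 CPM in Day-2 and 337, 245 and 277 CPM in LACT (log2 fold change 0.10, SE 0.28, FDR 0.776), and its direction turned under several scalings. Scaling by library size alone moved the median log2 fold change of all genes by -0.43, and EIF3F, EIF3CL and EIF3B then did not pass (FDR 0.0902, 0.256 and 0.174).

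**Figure D4:**
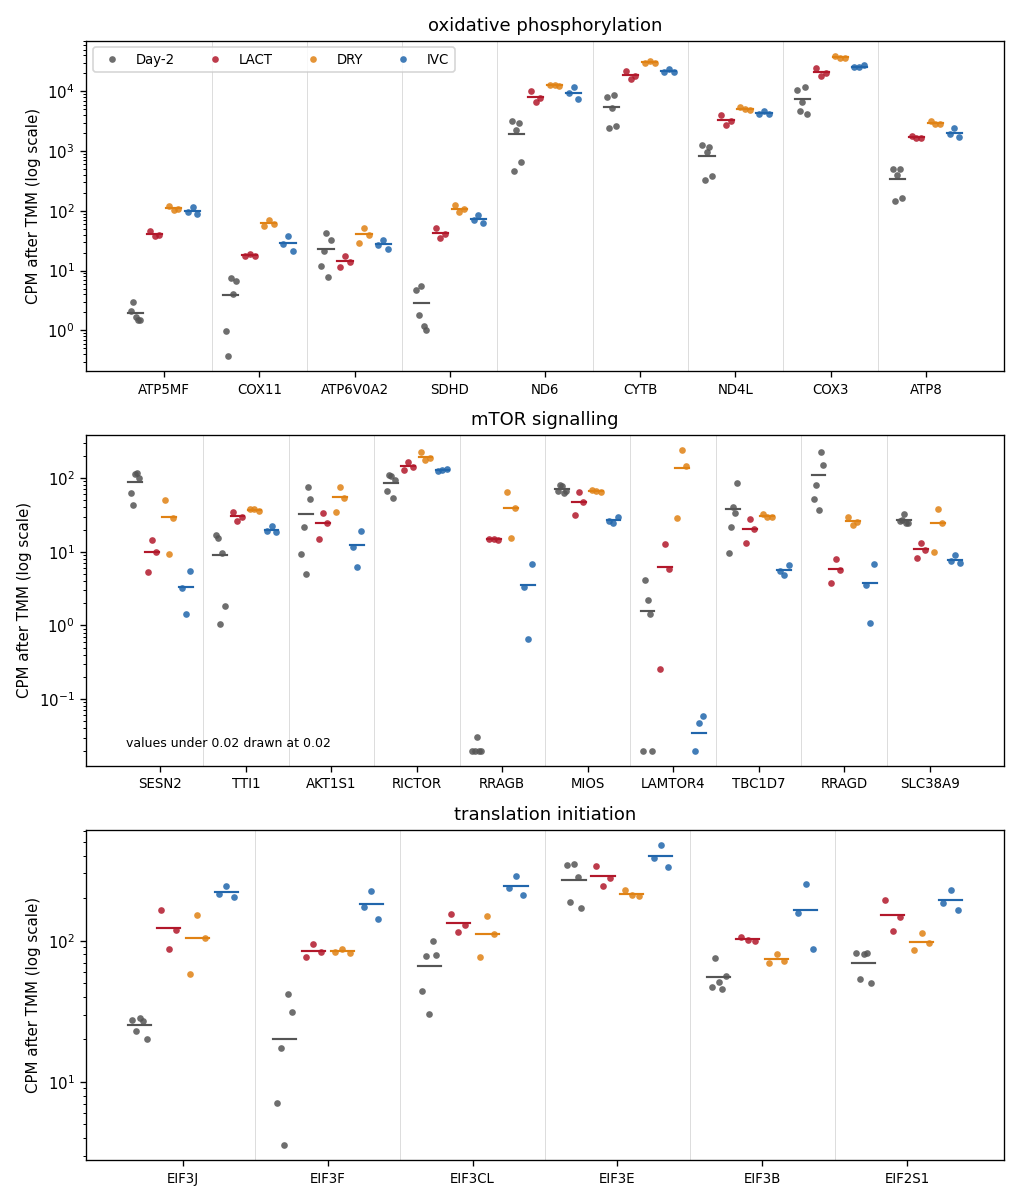
CPM of the 25 genes with a symbol in every library on a log scale, in 3 panels by function, with Day-2 (grey), LACT (red), DRY (orange) and IVC (blue) side by side and a line at each mean, except the mean of RRAGB in Day-2, which lies off the scale, as zeros are drawn at the lower edge. The LACT points lie above all Day-2 points for 16 genes, below them for 3 and overlap them for 6.

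LACT was set beside the other Day-4 groups in a fit of the 9 Day-4 libraries. Of 12069 genes, 681 were higher and 484 lower in LACT than in DRY (5.64% and 4.01%, together 9.65%), and 475 were higher and 543 lower than in IVC (3.94% and 4.5%, together 8.43%). DRY 3 and IVC 1 were within 5% of the average of their partner libraries for 83.2% and 92.0% of genes. With 2 libraries per group these counts were 69 and 12 of 12133 genes against DRY (0.569% and 0.0989%, together 0.668%) and 32 and 20 against IVC (0.264% and 0.165%, together 0.429%). The 25 genes were selected by the study for such differences. Among them, 8 of the 9 oxidative phosphorylation genes and LAMTOR4 were lower in LACT than in DRY, with a median log2 difference of -0.85 for the 9. With 2 libraries per group none of the 25 passed against DRY or IVC at an FDR under 0.05.

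Against Day-2, with the same Day-2 libraries used for each group, the oxidative phosphorylation set had a median log2 fold change of 2.11 in LACT, 2.73 in DRY and 2.37 in IVC. ATP5MF reached 46.3, 37.6 and 40.0 CPM in LACT 1 to 3, below all libraries of DRY (103 to 122 CPM) and IVC (87.5 to 118 CPM). The initiation set had medians of 1.07 in LACT, 0.62 in DRY and 1.71 in IVC, and the mTOR set -0.50, 0.32 and -1.82, the last over 9 genes because RRAGB was not tested in IVC.

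Other lists that the study drew from differences between Day-4 groups were set against Day-2 in the same way. Of all genes tested, 26.8% rose and 26.0% fell in LACT. In DRY 24.7% rose and 26.8% fell, and in IVC 28.6% rose and 27.9% fell. Ribosomal proteins rose in LACT for 16 of 18 genes (median log2 fold change 4.23), as they did for 16 in DRY and 17 in IVC. Genes of the tricarboxylic acid cycle, which feeds the respiratory chain, rose for 3 of 5 in LACT (median 1.62) and for all 5 in DRY (3.54) and in IVC (3.22). Genes listed under protein transport had a median of -0.99 in LACT, with 4 higher and 8 lower of 17, beside 0.67 in DRY and -0.27 in IVC, and 14 of the 17 were lower in LACT than in DRY. Without LACT 3, none of the 17 was higher and 5 were lower than in Day-2.

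Membrane traffic lists had medians near the Day-2 level in LACT, with single genes far to either side. Endosome genes had a median log2 fold change of -0.09 in LACT, 0.90 in DRY and 1.74 in IVC, and Golgi membrane genes 0.01, 0.36 and 1.48. Against IVC, 10 of 12 endosome genes and 15 of 19 Golgi membrane genes were lower in LACT. Both medians in LACT changed sign under other settings, to 0.10 for the endosome with DESeq2 size factors and to -0.43 for the Golgi membrane with library size alone. Centriole genes had a median of 1.53 in LACT, and their log2 fold changes ran from -1.08 to 7.34. Of these 11 genes 4 were higher and none lower, beside 26.8% of all genes tested that rose. Without LACT 3 it was 3 genes, beside 18.4%, so these counts are near the share of all genes. Their median was 1.10 in DRY, with 3 higher and 1 lower, and -1.23 in IVC over the 9 genes tested there. These lists were chosen on the same libraries, and with 2 libraries per group none of the genes of the lists named here was called between LACT and DRY or IVC.

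**Figure D5:**
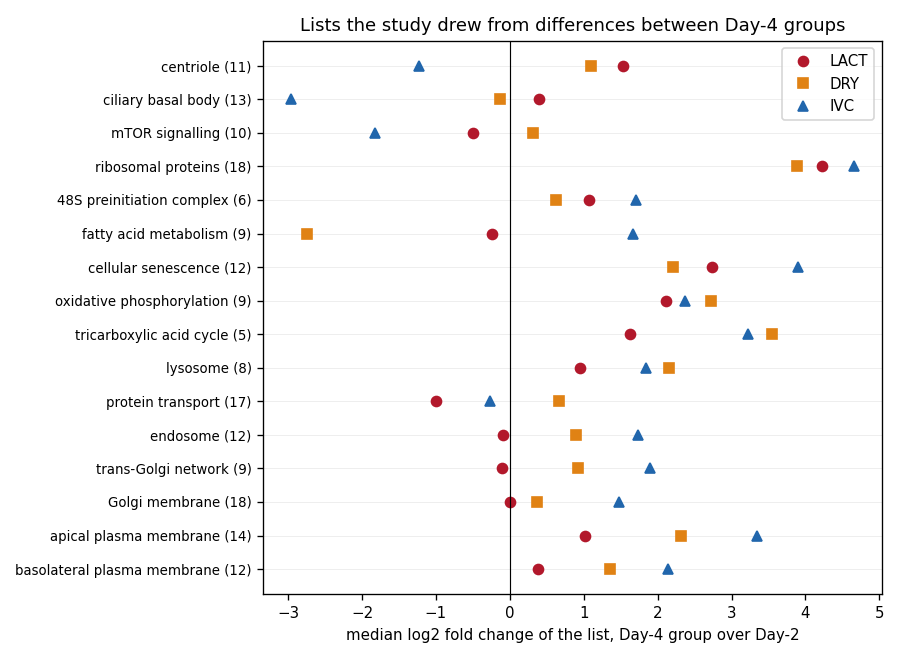
Median log2 fold change over Day-2 of 16 gene lists in LACT (circles), DRY (squares) and IVC (triangles), with the number of genes tested in LACT in brackets. In protein transport LACT lies at -0.99 and in endosome at -0.09, below DRY and IVC in both.

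A small number of genes set LACT apart from every other library. An FDR under 0.05 against Day-2, DRY and IVC was required here. Of 11968 genes tested against Day-2, 74 then had every LACT library above the 11 others and 35 below. LACT 3 lay near the mean of LACT 1 and LACT 2, so it adds little to this lack of overlap. No such count is given here for DRY or IVC, so whether LACT is unusual in this cannot be said. When each Day-4 group was cut to 2 libraries, 18 of the 74 and 1 of the 35 still passed against both. The lowest FDR against Day-2 among those above was that of ENSBTAG00000053878, with 0.211 to 0.528 CPM in Day-2 and 215, 71.7 and 133 CPM in LACT 1 to 3 (log2 fold change 8.65, SE 0.50, FDR 4.71e-06). Its DRY libraries ranged from 3.13 to 32.0 CPM, and no IVC library held more than 1 count. Among those below, ENSBTAG00000016532 fell from 30.2 to 42.7 CPM in Day-2 to at most 3 counts in any LACT library, at least 274-fold lower (FDR 7.32e-06), with 1.55 to 3.87 CPM in DRY and 7.34 to 17.3 CPM in IVC. With 2 libraries per group its FDR was 0.558 against DRY and 0.459 against IVC, and that of ENSBTAG00000053878 was 0.475 and 0.00654.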

How the data were processed

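The deposited table held raw counts per gene for 27607 Ensembl identifiers in 14 libraries of 100-base single-end reads. Per the labels and the study's methods, the authors checked reads with FastQC 0.11.9, trimmed them with Trimmomatic, aligned them to bosTau9 with STAR 2.7.0b and counted them with featureCounts from Subread 2.0.3. The annotation release and the strand setting of the counting are not given in the sources used here.

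Here the counts of the 3 LACT and 5 Day-2 libraries were scaled by TMM and fitted with edgeR 4.0.16 (robust quasi-likelihood test, limma 3.58.1, R 4.3.3) for genes that reached 1 CPM in 3 or more libraries, with Benjamini-Hochberg adjustment over all genes tested and a threshold of 0.05. With LACT 3 left out, 2 libraries sufficed for the filter. LACT was compared with DRY and IVC in a fit of the 9 Day-4 libraries, and again without LACT 3, DRY 3 and IVC 1. The alternatives included DESeq2 1.42.0, and tables were summarised with Python 3.11.15, numpy 2.4.6 and pandas 2.3.3. The fit of LACT against Day-2 was tested on simulated data with independent libraries and few genes changed, equally in both directions. The real libraries differ from that setting, so the simulation does not show that the p-values given here are sound. maSigPro, the study's tool for comparisons with Day 2, was not run. The members of the comparison and the gene lists were chosen with earlier results of these data known. The fits without Day-2 1 or Day-2 5 besides LACT 3 were added after seeing the data.

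Named were the genes whose identifiers the study pairs with symbols (1 gene is not reported here and was left out of its set), 1 gene for each direction among the most abundant, and 1 for each direction among those in which LACT lay apart from the 11 other libraries. No other identifier could be paired with a symbol, so marker lists for oviduct and uterine epithelium, cumulus, blood, sperm and oocyte were not checked. Lists of identifiers from the study's supplementary terms were used instead, and only those that are complete there. Levels were compared within a gene only, since gene lengths were not used here. For Day-2 pools nothing states separate cultures, so p-values may in part measure technical spread.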

Additional observations from a re-analysis of the deposited data

Results flagged for a closer look

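RRAGB had 1 count in Day-2 replicate 3 and 0 in the other 4 Day-2 libraries, so that the gap of that library to the others made up the whole range of the group (ratio 1.0). It was the only 1 of 33 groups of values checked in which a library stood apart in this way. With 1 read in 1 library and 0 in the others the ratio is 1.0 by construction. The flag therefore carries no weight, and the chance rate of about 1 in 20 does not apply to it.

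The Day-4 level, and so the change from the shared Day-2 libraries, differed between LACT and DRY for 9 of the 25 genes with a symbol. The test was edgeR's quasi-likelihood test on the Day-4 libraries (FDR under 0.05), which called 9.65% of all genes tested. The level was lower in LACT, by log2 differences of -1.45 for ATP5MF, -1.82 for COX11, -1.51 for ATP6V0A2, -1.39 for SDHD and -4.45 for LAMTOR4. For the mitochondrial genes they were -0.75 for CYTB, -0.64 for ND4L, -0.85 for COX3 and -0.82 for ATP8. Against Day-2, ATP6V0A2 had opposite signs, -0.71 in LACT and 0.78 in DRY, and passed in neither (FDR 0.356 and 0.276). Between LACT and IVC the level differed for 4 of the 25 genes, beside 8.43% of all genes tested. The differences were -1.30 for ATP5MF, 7.32 for LAMTOR4, 1.87 for TBC1D7 and -1.10 for EIF3F. The study selected these genes for differences between Day-4 groups of the same libraries, and none of the 13 differences passed with 2 libraries per group.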

How the results depend on the processing

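Leaving out 1 library at a time gave 2346 to 3111 genes higher in LACT than in Day-2, 2690 to 3361 lower and 5036 to 6237 in all. A minimum of 10 counts in every library gave 2016 higher, and a fixed dispersion setting (theta of 10) gave 5125 higher and 9734 in all. Without LACT 3, Day-2 1 and Day-2 5, 1985 were higher and 4208 changed. With the replicate number as a block, 4940 genes were called (2593 higher and 2347 lower). The correlations of deviations between libraries of the same number were 0.025, -0.006 and -0.007, so the numbers did not pair the libraries.

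Between LACT and DRY, against 1165 genes called, a fit of all 14 libraries gave 556, DESeq2 gave 2577, the replicate block 562 and 2 libraries per group 81, and leaving out a LACT library gave 273 to 920. Between LACT and IVC, against 1018, the same settings gave 456, 2345, 489 and 52, and 163 to 770. Without LACT 3 the counts were 273 and 163, and without LACT 2 the count against IVC was 633. The cause was not tested.

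AKT1S1, not called, turned to 1.18 with the replicate block and to 0.13 without Day-2 4 (range with 1 library left out, -0.95 to 0.13). EIF3E, not called, turned to -0.32 with library size alone, -0.052 with no filter, -0.032 in the fit of 14 libraries, -0.033 without the 10 genes of highest counts and -0.094 without LACT 3, Day-2 1 and Day-2 5, and lay between -0.29 and 0.21 when 1 library was left out. Of 631 values of single genes under alternatives, 542 kept direction and side of the threshold, 65 lost the call, 12 gained it and 12 turned. Of 1216 counts over lists, 71 moved by more than 1.5 times, and the median changed sign in 7 of 64 lists.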
